A study of Homo sapiens with 12 samples.

Results

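The miR-506 to miR-514 cluster is a group of microRNA hairpins on the human X chromosome that is specific to primates in its present form. It was followed here through 10 mature names: hsa-miR-506-3p, hsa-miR-507, hsa-miR-508-3p, hsa-miR-508-5p, hsa-miR-509-3p, hsa-miR-509-5p, hsa-miR-510-3p, hsa-miR-510-5p, hsa-miR-513a-5p and hsa-miR-514a-3p, written below without the prefix for human. These names were chosen by name, among the 2656 mature names counted, and all 10 were listed in each of the 12 libraries. That miR-510-3p is among the most abundant names in cells was part of the choice, so its level in cells is given as a description.

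Small RNA was sequenced from exosomes and from whole cells of AC16, an established human line derived from ventricular cardiomyocytes. The 4 groups held 3 libraries each: exosomes Ang, exosomes Con, whole cells Ang and whole cells Con. The headers of the Ang files read AngII, which is the usual short form of angiotensin II, a peptide hormone that drives cardiomyocyte hypertrophy, although no source used here gives its dose or time. The study asked which exosomal miRNAs differ under hypertrophy. No source says whether replicates were separate cultures, so each p-value speaks of the spread among these libraries, which may be technical.

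A microRNA hairpin gives a mature strand from each arm, named 5p and 3p, and usually one of them is kept by an Argonaute protein. Bases 2 to 8 of that strand, the seed, set which messenger RNAs it pairs with. The hairpins of this cluster have multiplied and diverged quickly in primates and are best known from the testis. They have mostly been studied there and as inhibitors of growth or invasion in tumour cells, not in heart muscle.

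All 10 names had a mature sequence in the RefSeq table for GRCh38.p14, as did 2367 of the 2656 listed names. The sequences show how alike the names are, which bears on how reads can be shared between them. They are given 5′ to 3′ with the seed in capitals. 3p names come before 5p names, and miR-509-3-5p, the 5p strand of the third miR-509 hairpin, stands beside miR-509-5p.
miR-510-3p: aUUGAAACcucuaagagugga
miR-514a-3p: aUUGACACuucugugaguaga
miR-509-3p: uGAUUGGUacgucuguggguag
miR-508-3p: uGAUUGUAgccuuuuggaguaga
miR-506-3p: uAAGGCACccuucugaguaga
miR-507: uUUUGCACcuuuuggagugaa
miR-509-5p: uACUGCAGacaguggcaauca
miR-509-3-5p: uACUGCAGacguggcaaucaug
miR-508-5p: uACUCCAGagggcgucacucaug
miR-510-5p: uACUCAGGagaguggcaaucac
miR-513a-5p: uUCACAGGgaggugucau
No 2 of the 10 names had the same seed. miR-509-5p and miR-509-3-5p shared the seed ACUGCAG and their first 10 bases, and 3 single-base edits turn one into the other. miR-508-3p and miR-509-3p shared their first 6 bases. Among listed names with a sequence, the nearest to miR-510-3p was miR-514b-3p, at 3 edits, and the nearest to miR-506-3p was miR-892b, at 6 edits. miR-513b-3p and miR-513c-3p of this cluster had no sequence in the RefSeq table and were not compared.

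The hairpins of miR-510 and of the miR-509 copies carry the results that follow, and are printed with the mature arms in capitals.
MIR510: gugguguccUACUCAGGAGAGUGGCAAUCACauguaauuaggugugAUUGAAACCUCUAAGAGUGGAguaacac
MIR509-1: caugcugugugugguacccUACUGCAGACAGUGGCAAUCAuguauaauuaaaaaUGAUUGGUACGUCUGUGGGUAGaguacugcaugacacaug
MIR509-3: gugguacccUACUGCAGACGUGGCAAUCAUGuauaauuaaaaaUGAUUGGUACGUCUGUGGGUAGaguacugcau
MIR510 lies at chrX:147272335-147272408, MIR509-1 at chrX:147260532-147260625 and MIR509-3 at chrX:147259652-147259726, all on the minus strand of GRCh38.p14. miR-509-3p is made by 3 hairpins, miR-509-5p by 2 of them and miR-509-3-5p by the remaining one. A read of miR-509-3p or of miR-509-5p therefore cannot be traced to 1 hairpin. The full sequences of miR-509-5p and miR-509-3-5p differ in their letters, but how reads that match both names were counted is unknown.

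The 15 hairpins of the cluster, from MIR513C to MIR514A3, ran from 147189704 to 147284728 on the X chromosome, all on the minus strand. In GENCODE release 29, 11 of them lay in introns of the long non-coding RNA gene AL589669.1, on the opposite strand, and none in its exons. The other 4, MIR510 and the 3 copies of MIR514A, overlapped no other gene. MIR506, MIR507 and MIR508 lay 41.0, 41.3 and 47.2 kb from MIR513C, the miR-509 copies 69.1 to 70.8 kb from it and MIR510 82.6 kb from it.

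Library totals ran from 697049 to 1029883 unique molecular identifiers (UMIs, tags that count each captured molecule once) in exosomes and from 413513 to 528844 in cells. Levels are given as CPM, the count scaled to the library's total UMIs in the usual way. As relative levels, they cannot tell apart fewer cells that hold a miRNA and less of it per cell. Cells Ang replicate 2 stood apart from its group, with 4007 CPM of the endothelial miR-126-3p and 2041 CPM of the blood cell miR-142-3p, against 302 and 318 CPM of miR-126-3p and 99.9 and 105 CPM of miR-142-3p in replicates 1 and 3. Exosomes Con replicate 1 also stood apart, since its counts differed from replicates 2 and 3 by a chi-square of 8.04 and 13.0 for each degree of freedom, against 2.16 between replicates 2 and 3. Muscle markers were low as a sum, and uneven. Their 7 names, from miR-1-3p to miR-499a-5p, summed to between 285 and 326 CPM in cells Ang and between 344 and 376 CPM in cells Con. miR-1-3p averaged 5.73 ± 1.59 CPM in cells Ang and 11.9 ± 4.98 CPM in cells Con (SD, n = 3). The highest of the 7 was miR-208a-3p, at 162 ± 13.8 CPM in cells Ang and 221 ± 26.7 CPM in cells Con. Next came miR-208b-3p, at 61.1 and 75.0 CPM. The 5 testis markers, which include miR-34c-5p and miR-202-5p, summed to between 285 and 332 CPM in cells Ang and between 252 and 327 CPM in cells Con.

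Within the cluster, miR-510-3p made up most of the counts. The 10 names together held 0.313% ± 0.0043 of UMIs in exosomes Ang, 0.203% ± 0.0063 in exosomes Con, 1.98% ± 0.192 in cells Ang and 2.55% ± 0.151 in cells Con (SD, n = 3 each). Of these, miR-510-3p alone made up 78.7% in exosomes Ang, 65.3% in exosomes Con, 87.2% in cells Ang and 90.4% in cells Con. By mean CPM it ranked 65th, 118th, 5th and 4th of 2656 names in these groups. In cells its neighbours in the order of levels were far below it: miR-509-3p, miR-509-5p and miR-506-3p, then miR-508-5p.

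**Figure D1:**
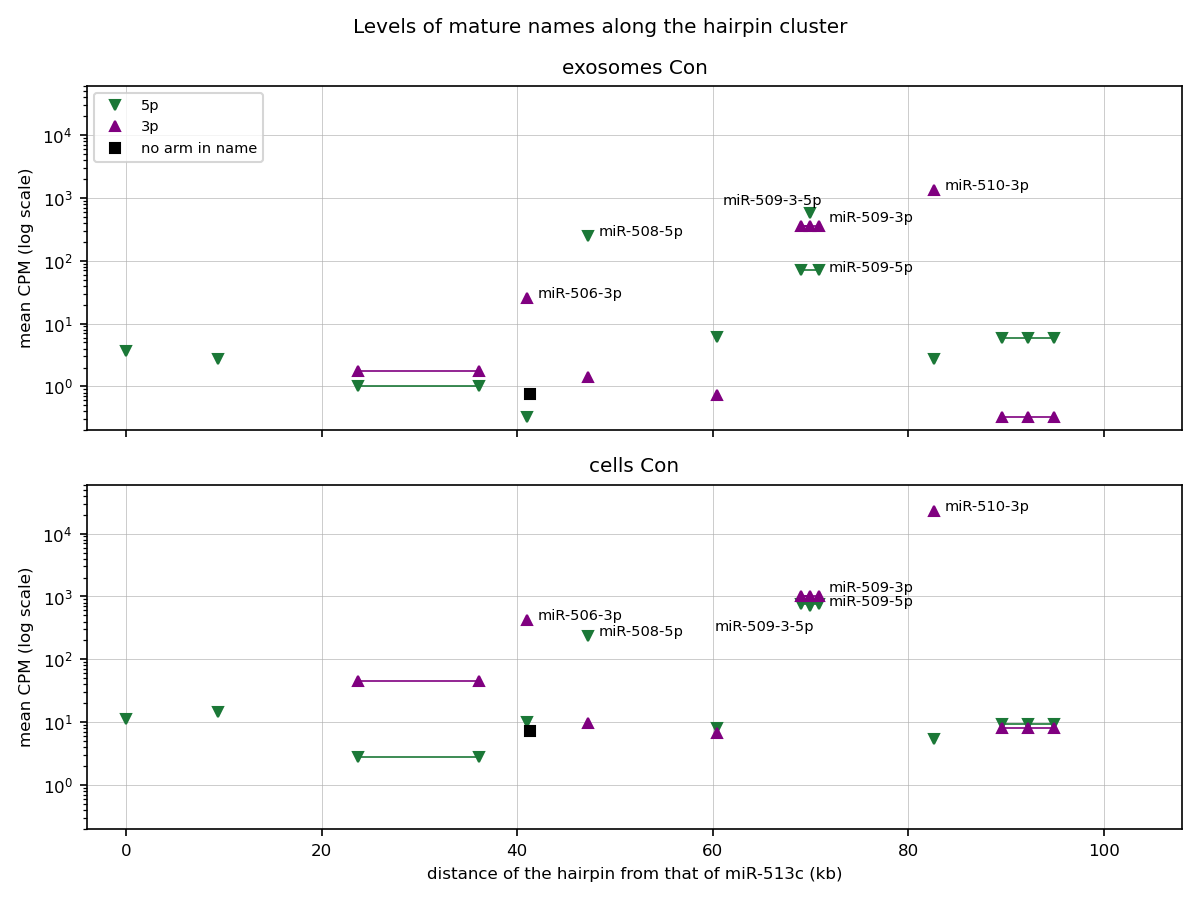
Mean CPM (log scale) of the mature names of the cluster with a sequence in the RefSeq table, in exosomes Con (top) and cells Con (bottom), against the distance of the hairpin from that of miR-513c in kb. Triangles pointing down are 5p names, triangles pointing up 3p names, the square is miR-507, and a line joins the copies of a name made by several hairpins. miR-510-3p stands highest in both, at 1326 and 23010 CPM, while the other strand of its hairpin stands at 2.71 and 5.40 CPM.

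The 5 other names were near the counting floor. miR-507, miR-508-3p, miR-510-5p, miR-513a-5p and miR-514a-3p had between 0 and 5 UMIs in each exosome library and between 0 and 9 in each cell library. A count of 0 allows up to 3 counts, which equal 2.91 to 4.30 CPM in exosome libraries and 5.67 to 7.25 CPM in cell libraries, for counting error only. In cells Con, 41.1% of all listed names averaged under 10 UMIs, so these 5 names stood where many others did. miR-514a-3p, described as a regulator of NF1 in melanoma, had 28 UMIs over the 6 cell libraries and 2 over the 6 exosome libraries. miR-513a-5p, which has been described as targeting the immune checkpoint ligand CD274, had 6 UMIs over the exosome libraries and 9 over the cell libraries. None of the 5 passed the filter on low counts in any comparison. With no count filter, none of them passed in Ang against Con in exosomes or in cells, or in the interaction, so no such difference was detectable at this depth. In exosomes against cells without the filter, miR-514a-3p was lower in exosomes in Ang (edgeR adjusted p = 0.0284) and in Con (edgeR adjusted p = 0.0304), on 1 UMI in each exosome group, and the other 4 did not pass.

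The first comparison was Ang against Con in exosomes. Of the 10 names, 5 passed the filter on low counts, and 2 of them rose in Ang, miR-510-3p and miR-509-3p. Over all 1199 names tested, 34.0% passed the threshold of 0.05 in either direction and 17.0% were higher in Ang. miR-510-3p stood at 2468, 2452 and 2461 CPM in exosomes Ang, against 1373, 1308 and 1298 CPM in exosomes Con. The groups did not overlap, and the Ang libraries lay close together. The rise was 2.08-fold (log2 1.06, SE 0.064, 95% interval 0.91 to 1.20, adjusted p = 2.26e-06, edgeR quasi-likelihood test with Benjamini-Hochberg adjustment, n = 3 per group). By p it was the 11th of the 1199 names. Without exosomes Con replicate 1 it was log2 1.11. The 7 blood cell markers summed to between 346 and 643 CPM in exosomes Ang and between 552 and 1279 CPM in exosomes Con, and 3 of the 5 tested fell in Ang. Their part in the exosome results was not tested.

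miR-509-3p, which has been described as slowing the growth of several tumour cell types, stood at 403, 436 and 385 CPM in exosomes Ang, against 348, 340 and 363 CPM in exosomes Con. The groups did not overlap. It rose 1.31-fold (log2 0.38, SE 0.084, edgeR adjusted p = 0.00548). TMM, the trimmed mean of M values, scales libraries so that the typical name does not change. With library totals in its place, the value was log2 0.22 (edgeR adjusted p = 0.0459). The median log2 of all names was -0.052 with TMM and -0.22 with library totals, and calls split into 204 higher and 204 lower with TMM, but 151 and 319 with library totals.

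miR-509-3-5p, from the same set of hairpins but no member of the 10, fell to 333, 349 and 391 CPM in exosomes Ang, against 616, 541 and 543 CPM in exosomes Con (log2 -0.50, SE 0.102, edgeR adjusted p = 0.00394). miR-508-5p, described as restoring drug sensitivity in gastric cancer cells by way of the drug pump gene ABCB1, stood at 166, 196 and 175 CPM in exosomes Ang, against 276, 245 and 232 CPM in exosomes Con. The groups did not overlap in CPM, but it did not pass with TMM scaling (log2 -0.32, SE 0.121, edgeR adjusted p = 0.0677). It passed with library totals (log2 -0.48, edgeR adjusted p = 0.00651), with no count filter (log2 -0.38, edgeR adjusted p = 0.0267) and without exosomes Con replicate 3 (log2 -0.40, edgeR adjusted p = 0.0367).

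miR-509-5p stood at 40.2, 66.8 and 53.8 CPM in exosomes Ang, against 67.0, 70.9 and 78.3 CPM in exosomes Con, and did not pass (log2 -0.24, 95% interval -0.64 to 0.15, edgeR adjusted p = 0.336). miR-506-3p stood at 24.4, 15.7 and 13.7 CPM in exosomes Ang, against 33.0, 24.8 and 17.5 CPM in exosomes Con. These ranges overlapped, the counts were 14 to 34 UMIs a library, and it did not pass (log2 -0.38, 95% interval -1.10 to 0.33, edgeR adjusted p = 0.405).

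**Figure D2:**
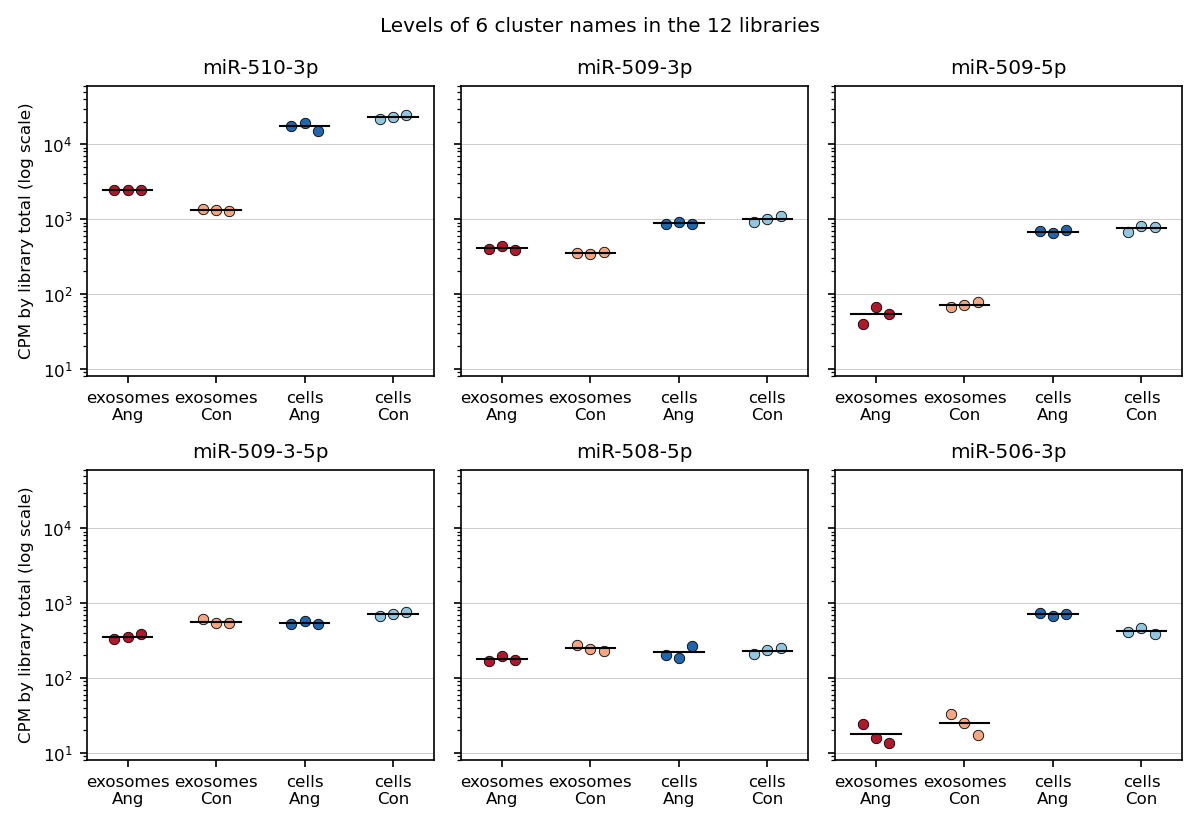
CPM by library total (log scale) of miR-510-3p, miR-509-3p, miR-509-5p, miR-509-3-5p, miR-508-5p and miR-506-3p in the 12 libraries, with exosomes Ang, exosomes Con, cells Ang and cells Con from left to right. Each point is 1 library and each bar the mean of 3. miR-510-3p averaged 2460 CPM in exosomes Ang and 1326 CPM in exosomes Con, but 17280 CPM in cells Ang and 23010 CPM in cells Con.

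In cells, Ang was compared with Con in the same way. The same number of the 10 names was tested, 5, and 2 passed: miR-506-3p rose and miR-510-3p fell. Over all 1630 names tested, 6.56% passed, with 2.76% of the tested names higher and 3.80% lower in Ang. miR-506-3p shares its seed with the neuronal miR-124 and has been described as restraining the epithelial to mesenchymal transition. It stood at 746, 680 and 710 CPM in cells Ang, against 414, 461 and 392 CPM in cells Con. The groups did not overlap, and the rise was 1.67-fold (log2 0.74, SE 0.094, 95% interval 0.54 to 0.94, edgeR adjusted p = 0.000283). By p it was the 4th of 1630 names. miR-124-3p itself averaged 21.5 ± 5.15 CPM in cells Ang and 28.5 ± 11.6 CPM in cells Con (SD, n = 3).

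miR-510-3p stood at 17440, 19170 and 15220 CPM in cells Ang, against 21730, 22890 and 24400 CPM in cells Con. The groups did not overlap, and the change was log2 -0.43 (SE 0.079, 95% interval -0.59 to -0.26, edgeR adjusted p = 0.00376). The calls of both names held without cells Ang replicate 2, the library rich in blood and endothelial miRNAs (blood cell markers summed to between 2041 and 6895 CPM in cells Ang and between 2134 and 2374 CPM in cells Con), where miR-506-3p had log2 0.76 and miR-510-3p log2 -0.51.

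Of the miR-509 strands, miR-509-3p and miR-509-5p changed less in cells than miR-510-3p. miR-509-3p stood at 858, 924 and 864 CPM in cells Ang, against 911, 1017 and 1115 CPM in cells Con, and did not pass (log2 -0.21, SE 0.089, edgeR adjusted p = 0.191). miR-509-5p stood at 697, 646 and 704 CPM in cells Ang, against 677, 812 and 776 CPM in cells Con (log2 -0.16, edgeR adjusted p = 0.372). miR-509-3-5p fell to 528, 568 and 528 CPM in cells Ang, against 671, 711 and 764 CPM in cells Con. Its groups did not overlap (log2 -0.41, SE 0.092, edgeR adjusted p = 0.0118), but the call ended without cells Con replicate 2 (edgeR adjusted p = 0.0644) or replicate 3 (edgeR adjusted p = 0.0772). miR-508-5p overlapped between groups, at 200, 186 and 271 CPM in cells Ang and 212, 235 and 250 CPM in cells Con (log2 -0.088, edgeR adjusted p = 0.823). Its sign turned, to log2 0.0084, without cells Ang replicate 2.

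Whether the Ang change differed between exosomes and cells was tested as an interaction over all 12 libraries. Of the 5 names tested, 2 had a higher and 1 a lower value in exosomes than in cells, where 15.1% of 1835 names passed, 9.97% higher and 5.18% lower. miR-510-3p had a log2 interaction of 1.62 (SE 0.120, 95% interval 1.37 to 1.87, edgeR adjusted p = 1.09e-07), the 3rd of 1835 names by p. It was higher in Ang in exosomes and lower in Ang in cells. miR-509-3p had a log2 interaction of 0.74 (SE 0.125, edgeR adjusted p = 0.000439). For both the call held with TMM, with RLE size factors (log2 1.73 and 0.85) and with library totals (log2 1.30 and 0.42).

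miR-506-3p had a log2 interaction of -0.98 (SE 0.297, 95% interval -1.60 to -0.35, edgeR adjusted p = 0.0346). This call ended with RLE size factors (log2 -0.87, edgeR adjusted p = 0.0584) and without any one of 6 libraries, among them exosomes Con replicate 1 (log2 -0.74, edgeR adjusted p = 0.106). The interactions of miR-508-5p (log2 -0.089), miR-509-5p (log2 0.055) and miR-509-3-5p (log2 0.058) did not pass, with edgeR adjusted p = 0.854, 0.924 and 0.874. The median of all names was 0.048 in this test, 0.16 with RLE size factors and -0.26 with library totals, and the calls split into 183 higher and 95 lower with TMM, 250 and 77 with RLE and 93 and 221 with library totals.

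**Figure D3:**
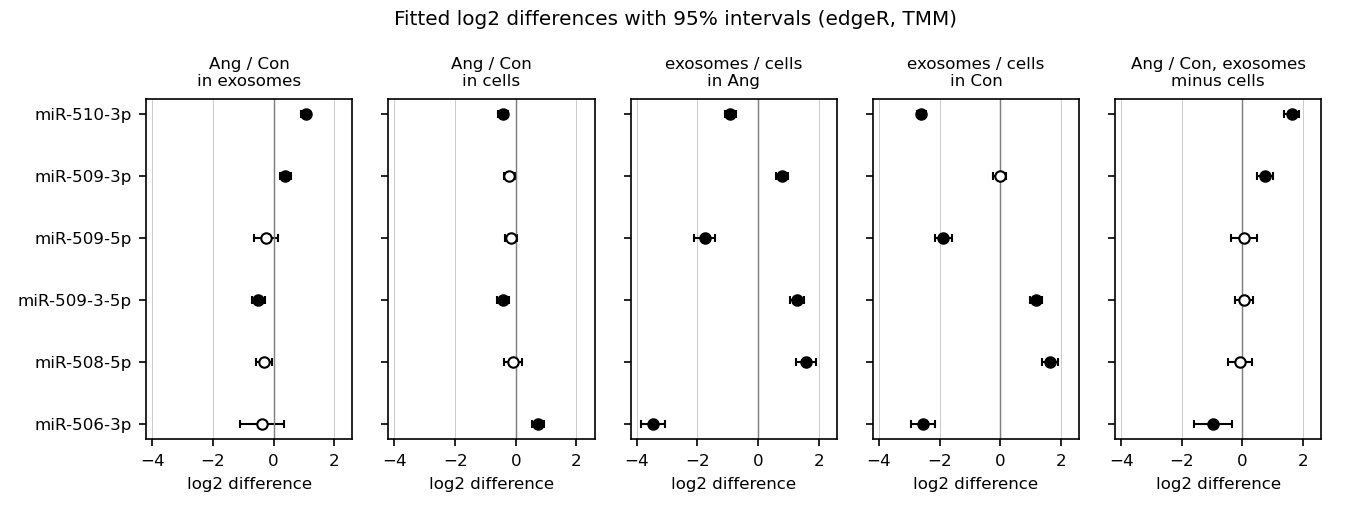
Fitted log2 differences of 6 cluster names, from left to right Ang over Con in exosomes, Ang over Con in cells, exosomes over cells in Ang, exosomes over cells in Con, and the Ang over Con value in exosomes minus that in cells. The last panel is from 1 fit over all 12 libraries and the others from fits of 6, so the panels do not subtract exactly. Points are edgeR estimates with TMM scaling, bars 95% intervals, and filled points passed an adjusted p of 0.05 (a description only for miR-510-3p in exosomes over cells). miR-510-3p lies right of 0 for Ang over Con in exosomes (1.06) and left of 0 in cells (-0.43), while the exosome over cell points of miR-509-3-5p in Ang and Con (1.29, 1.18) and of miR-508-5p and miR-509-3p in Ang (1.60, 0.78) change sign with library totals.

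Exosomes were then compared with cells, in Ang and in Con. The compartments were extracted with different kits, so compartment and kit cannot be told apart. These comparisons share their libraries with the ones above. Scaling mattered here: the median log2 difference of all names was -0.31 in Ang and -0.27 in Con with TMM, but -2.19 and -1.78 with library totals. Calls split into 621 higher and 734 lower in Ang with TMM, against 296 and 1173 with library totals. In Con they split into 670 and 755 with TMM, and 349 and 1151 with library totals.

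In Ang, all 5 names tested passed, 2 higher and 3 lower in exosomes, where 83.3% of 1627 names passed, 38.2% higher and 45.1% lower. In Con, 4 of 5 passed, 1 higher and 3 lower, where 83.3% of 1710 names passed, 39.2% higher and 44.2% lower. These counts of members stand near the share of all names, and they include miR-510-3p, whose level in cells was part of the choice.

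The names lower in exosomes were miR-506-3p, miR-510-3p and miR-509-5p. miR-506-3p averaged 17.9 ± 5.69 CPM in exosomes Ang, against 712 ± 33.4 CPM in cells Ang, and 25.1 ± 7.76 CPM in exosomes Con, against 422 ± 35.6 CPM in cells Con (SD, n = 3). It was 11.0-fold lower in exosomes Ang (log2 -3.46, SE 0.189, edgeR adjusted p = 1.74e-11) and 5.84-fold lower in exosomes Con (log2 -2.55, SE 0.183, edgeR adjusted p = 2.49e-07). With library totals these were log2 -5.35 and -4.06. miR-510-3p averaged 2460 ± 7.69 CPM in exosomes Ang, against 17280 ± 1980 CPM in cells Ang, and 1326 ± 40.7 CPM in exosomes Con, against 23010 ± 1339 CPM in cells Con. Its fitted difference was log2 -0.92 in Ang and -2.60 in Con, and -2.81 and -4.12 with library totals. Since its level in cells was part of the choice, these values are a description, with no test. No library of one compartment reached the range of the other for either name.

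miR-509-5p and miR-509-3-5p, which share their seed, had differences of opposite sign with TMM scaling and of the same sign with library totals. miR-509-5p averaged 53.6 ± 13.3 CPM in exosomes Ang, against 682 ± 31.9 CPM in cells Ang, and 72.1 ± 5.71 CPM in exosomes Con, against 755 ± 69.9 CPM in cells Con. Its log2 difference was -1.76 in Ang and -1.87 in Con (edgeR adjusted p = 1.74e-08 and 9.16e-08), and -3.65 and -3.39 with library totals. miR-509-3-5p averaged 358 ± 30.2 CPM in exosomes Ang, against 542 ± 23.1 CPM in cells Ang, and 567 ± 42.5 CPM in exosomes Con, against 716 ± 46.6 CPM in cells Con. Its log2 difference was 1.29 in Ang and 1.18 in Con (edgeR adjusted p = 6.09e-09 and 6.14e-07), but with library totals it was -0.60 and -0.33 and passed in that direction.

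A share within a library does not depend on scaling. miR-509-5p made up 10.8%, 16.1% and 12.1% of the UMIs of the pair in exosomes Ang and 9.82%, 11.6% and 12.6% in exosomes Con. It made up 56.9%, 53.2% and 57.1% in cells Ang and 50.2%, 53.3% and 50.4% in cells Con. The exosome libraries lay between 9.82% and 16.1% and the cell libraries between 50.2% and 57.1%, so the compartments did not overlap. The exact (Clopper-Pearson) 95% interval of the highest exosome library was 12.6% to 20.1%, and that of the lowest cell library 46.5% to 53.9%. This share was chosen after the values were seen and has no test.

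miR-508-5p and miR-509-3p were placed by the scaling. miR-508-5p averaged 179 ± 15.4 CPM in exosomes Ang, against 219 ± 45.6 CPM in cells Ang, and 251 ± 22.6 CPM in exosomes Con, against 232 ± 19.2 CPM in cells Con. With TMM scaling its log2 difference was 1.60 in Ang and 1.63 in Con (edgeR adjusted p = 5.19e-08 and 2.67e-07), but with library totals it was -0.29 and 0.12 and neither passed (edgeR adjusted p = 0.081 and 0.345). miR-509-3p averaged 408 ± 25.5 CPM in exosomes Ang, against 882 ± 36.3 CPM in cells Ang, and 350 ± 12 CPM in exosomes Con, against 1015 ± 102 CPM in cells Con. Its log2 difference was 0.78 in Ang (edgeR adjusted p = 9.5e-07) and -0.019 in Con (edgeR adjusted p = 0.861), and with library totals -1.11 and -1.53, both past the threshold.

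The arms of a hairpin were compared as the 3p share of its UMIs. The hairpin of miR-510 gave almost nothing but 3p counts. miR-510-5p had 5 of 6589 UMIs in exosomes Ang, 8 of 3845 in exosomes Con, 13 of 24304 in cells Ang and 8 of 33659 in cells Con. miR-508 was the reverse, with 3p shares of 0.93% ± 0.86 in exosomes Ang, 0.57% ± 0.30 in exosomes Con, 5.29% ± 1.47 in cells Ang and 3.71% ± 3.65 in cells Con (SD, n = 3), which rest on 4 to 18 UMIs of miR-508-3p a group. The miR-508-3p ranges of cells Con and exosomes Con overlapped.

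For miR-509, the 3p share over miR-509-3p and miR-509-5p was 88.5% ± 2.21 in exosomes Ang, 82.95% ± 0.80 in exosomes Con, 56.4% ± 2.15 in cells Ang and 57.3% ± 1.68 in cells Con. The groups did not overlap between exosomes Ang and exosomes Con, nor between the compartments. This was not particular to miR-509. The 3p shares of miR-508 did not overlap between exosomes Ang and cells Ang. Those of miR-510 did not overlap between cells Ang and cells Con, nor between exosomes Con and cells Con. In the remaining arm contrasts the groups overlapped. Each contrast without overlap gave an exact two-sided permutation p of 0.1, the smallest that 3 libraries against 3 allow. The adjusted p was 0.2 over the 12 arm tests, so none passed. The 3p share of miR-509 depends on which 5p names are counted. With miR-509-3-5p added to the 5p arm, an alternative chosen after seeing the data, the share was 49.8% ± 3.0 in exosomes Ang, 35.5% ± 1.61 in exosomes Con, 41.9% ± 1.16 in cells Ang and 40.8% ± 1.06 in cells Con. The exosome value then lay above that of cells in Ang and below it in Con.

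The neighbours miR-510 and miR-509 could also be set against each other inside each library. The ratio of miR-510-3p to miR-509-3p UMIs was 6.12, 5.63 and 6.39 in exosomes Ang and 3.95, 3.85 and 3.57 in exosomes Con. It was 20.3, 20.8 and 17.6 in cells Ang and 23.8, 22.5 and 21.9 in cells Con. No pair of groups overlapped, with Ang above Con in exosomes and below it in cells. The ratio of miR-510-3p to miR-506-3p was 146 ± 40.4 in exosomes Ang, 56.2 ± 16.6 in exosomes Con, 24.4 ± 3.49 in cells Ang and 54.8 ± 6.67 in cells Con (SD, n = 3). Both ratios were added after the values were seen and are descriptions.

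**Figure D4:**
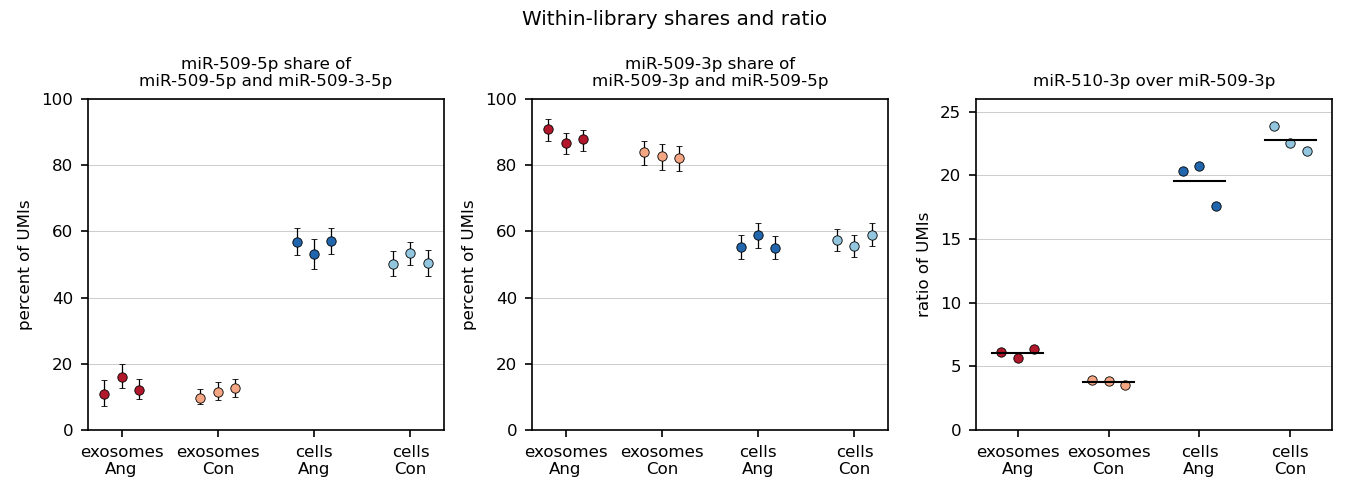
Values that do not depend on scaling between libraries, with exosomes Ang, exosomes Con, cells Ang and cells Con from left to right and 1 point per library. The left panel gives miR-509-5p as a percent of miR-509-5p and miR-509-3-5p UMIs, the middle panel miR-509-3p as a percent of miR-509-3p and miR-509-5p UMIs, both with exact 95% intervals, and the right panel the ratio of miR-510-3p to miR-509-3p UMIs with the mean as a bar. In the left panel the exosome libraries lie between 9.82% and 16.1% and the cell libraries between 50.2% and 57.1%.

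The other mature names of these hairpins, 10 in all, were low apart from miR-509-3-5p. The remaining 9, which include miR-506-5p, both strands of miR-513b, miR-513c and miR-514b, miR-513a-3p and miR-514a-5p, had between 0 and 9 UMIs in an exosome library and between 1 and 23 in a cell library. Of the 10, 1 of 1 tested fell in exosomes under Ang and 1 of 3 tested fell in cells, in both miR-509-3-5p, where 17.0% of all names tested were lower in exosomes and 3.80% in cells. miR-513a-3p had 6 UMIs in exosomes Ang, against 49 in cells Ang, and 5 in exosomes Con, against 67 in cells Con. miR-513c-3p had 3 UMIs in exosomes Ang, against 44 in cells Ang, and 5 in exosomes Con, against 58 in cells Con. Both passed the count filter through the cell libraries, with 1 to 3 UMIs in each exosome library, so these values are given with no test.

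The miR-888 group, the next hairpins on the X chromosome at 145992750 to 146027872, 1162 kb from MIR513C, is known from the epididymis. Its 10 names had between 0 and 10 UMIs in an exosome library and between 0 and 19 in a cell library. Under Ang in cells 0 of its 2 tested names passed, where 6.56% of all 1630 names tested did, and none was tested in exosomes. miR-888-5p had 2 UMIs in exosomes Ang, against 47 in cells Ang, and 1 UMI in exosomes Con, against 30 in cells Con. It passed the count filter through the cell libraries, so this is a description.

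Among names with the same seed as a member, miR-557 (seed UUUGCAC, as miR-507) averaged 4.52 CPM in exosomes Ang, 7.68 in exosomes Con, 98.8 in cells Ang and 71.1 in cells Con, well above miR-507 in cells at 7.71 CPM in Ang and 7.25 in Con. miR-4418, which shares the seed of the miR-509 5p strands, averaged 9.79 CPM in exosomes Ang, 6.45 in exosomes Con, 250 in cells Ang and 248 in cells Con. Neither passed in Ang against Con in cells (edgeR adjusted p = 0.154 and 0.998).

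Over the 12 libraries, the profile most like that of miR-510-3p was that of miR-582-5p, with a root-mean-square difference of 0.135 in centred log2 CPM, where the median over 897 names was 1.21. miR-582-5p averaged 86.1 CPM in exosomes Ang, 52.4 in exosomes Con, 628 in cells Ang and 816 in cells Con. miR-5581-3p (0.217) and miR-938 (0.24) followed. For miR-506-3p the nearest were miR-7110-3p (0.305), miR-515-5p (0.34) and miR-3133 (0.345), with a median of 1.54 over all names. Of these, miR-515-5p averaged 1.48 CPM in exosomes Ang and 2.75 CPM in exosomes Con, under the counting floor, so its likeness there rests on few counts.

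Another primate cluster, on chromosome 19, and another X-linked one, in the gene CLCN5, are given for scale. Of the chromosome 19 cluster, 3 of 8 tested names rose and 2 fell in exosomes under Ang, with a median log2 of -0.25, and 0 rose and 1 of 18 fell in cells, with a median of -0.025. Of the CLCN5 cluster, 2 of 4 rose and 0 fell in exosomes, with a median of 0.39, and 0 rose and 1 of 7 fell in cells, with a median of 0.12. Over all names tested, 17.0% rose and 17.0% fell in exosomes, and 2.76% rose and 3.80% fell in cells. Over all names these medians were -0.052 in exosomes and 0.024 in cells. The 5 tested names of the miR-506 to miR-514 cluster had medians of -0.24 in exosomes and -0.16 in cells.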

How the data were processed

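Small RNA libraries were made with a QIAseq miRNA kit from AC16 cells (RNA by a miRNeasy Micro kit) and their exosomes (exoRNeasy Maxi kit), per the labels' protocols. The deposited values are UMI counts per mature miRNA, 1 file per library, not normalized. cutadapt and GRCh38 are named in the submitters' processing notes, and the aligner and annotation were not given in the sources used here. How reads that match several names were counted is unknown. The 76 names absent from the exosome files, none of them a member, were taken as 0.

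Counts were tested with edgeR 4.0.16 (R 4.3.3): filterByExpr, TMM, quasi-likelihood F test, Benjamini-Hochberg adjustment over all names tested, threshold 0.05. Pairwise comparisons used the 6 libraries concerned and the interaction all 12. CPM uses library totals, and fitted log2 differences use TMM. Likeness used log2 CPM with a prior count of 2, for names averaging at least 100 CPM in some group. Arm shares were compared with exact two-sided permutation tests over libraries. Intervals and the floor of 3 counts cover counting error only. Alternatives were RLE, library totals, DESeq2 1.42.0 with its own filter, no count filter, a replicate block, 1 fit over all libraries and leaving out each library. The test was run on simulated counts, with 200 changed names and groups otherwise of the same composition. That setting does not cover the scaling between exosomes and cells. All members are named, and the members and lists were chosen with earlier results of these data known. Sequences and hairpin positions are from RefSeq (GRCh38.p14).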

Additional observations from a re-analysis of the deposited data

Results flagged for a closer look

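The Ang effect differed between exosomes and cells for 3 of the 5 names tested, by the test of that difference itself (edgeR interaction over 12 libraries, Benjamini-Hochberg adjusted p of 0.05 or less). Over all 1835 names tested, 15.1% passed. The log2 difference of effects was 1.62 for miR-510-3p, which was higher in Ang in exosomes (1.06) and lower in Ang in cells (-0.43). It was 0.74 for miR-509-3p, with 0.38 in exosomes and -0.21 in cells. It was -0.98 for miR-506-3p, with -0.38 in exosomes and 0.74 in cells, but this call was lost in 7 of 17 alternatives. The values within a compartment come from separate fits of 6 libraries, so they do not subtract exactly to the interaction.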

How the results depend on the processing

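The interaction of miR-506-3p, which had 14 to 34 UMIs in an exosome library, was lost in 7 of 17 alternatives, and the cause was not tested. The call was lost with RLE (-0.87) and without cells Con replicate 1 (-0.97) or 3 (-0.92) or cells Ang replicate 1 (-0.91). It was also lost without exosomes Con replicate 1 (-0.74) or exosomes Ang replicate 2 (-0.92) or 3 (-0.83). Over all 17 alternatives its adjusted p, by edgeR or DESeq2, ran from 0.00511 to 0.106. The Ang calls of miR-510-3p held in every alternative run (-0.51 to -0.34 in cells, 0.89 to 1.14 in exosomes, 1.30 to 1.74 as interaction), as did those of miR-509-3p in exosomes (0.22 to 0.47) and as interaction (0.42 to 0.85) and of miR-506-3p in cells (0.67 to 0.80). The replicate block gave 132 calls in cells, 398 in exosomes, 1398 for exosomes against cells in Con, 1345 in Ang and 252 as interaction, against 107, 408, 1425, 1355 and 278 without it, and the same number of members called. Equal replicate numbers did not deviate together in every pair (correlations -0.156 to 0.244). In Ang against Con in exosomes the values were 0.244 for replicate 1, 0.23 for replicate 2 and -0.156 for replicate 3. This check cannot tell whether equal numbers shared a culture or a day. Leaving out a library gave 38 to 97 calls in cells, with 38 without cells Con replicate 2 or 3 and 70 without cells Ang replicate 1, and 312 to 422 in exosomes.

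With library totals, exosomes against cells gave -5.35 (Ang) and -4.06 (Con) for miR-506-3p, -3.65 and -3.39 for miR-509-5p and -2.81 and -4.12 for miR-510-3p. Signs turned for values of exosomes against cells with library totals, in Ang for miR-508-5p (-0.29), miR-509-3p (-1.11) and miR-509-3-5p (-0.60) and in Con for miR-509-3-5p (-0.33). Library totals leave out the scaling that sets the typical name to no change. The Con value of miR-509-3p, near 0, turned with no filter (0.0426), with 1 fit over all libraries (0.0386), and without cells Con replicate 2 or 3, with a range of -0.1201 to 0.0784 over left-out libraries. Interactions near 0 turned for miR-508-5p with RLE (0.017), DESeq2 (0.0236) and without cells Ang replicate 3 (range -0.1848 to 0.0782). They turned for miR-509-5p with library totals (-0.2586) and without exosomes Con replicate 1 or exosomes Ang replicate 2 (range -0.1478 to 0.1871), and for miR-509-3-5p with library totals (-0.2598) and without exosomes Con replicate 2 or exosomes Ang replicate 3 (range -0.0433 to 0.0959). In cells, miR-508-5p turned without cells Ang replicate 2 (range -0.2742 to 0.0084). The cause of these turns was not tested. DESeq2 split the calls into 181 higher and 118 lower in exosomes, 28 and 64 in cells and 243 and 61 as interaction. With miR-509-3-5p in the 5p arm, the 3p share of miR-509 differed by 1.08 percentage points (Ang minus Con, cells), 14.4 (Ang minus Con, exosomes), 7.97 (exosomes minus cells, Ang) and -5.34 (exosomes minus cells, Con), against -0.95, 5.51, 32.1 and 25.6 without it.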
